A study of Mus musculus with 31 samples.

Results

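The 37 genes of DNA replication and S phase in mouse long-term haematopoietic stem cells (LT-HSCs) were followed through 8 groups of bulk RNA sequencing libraries. They were chosen by symbol and role, with earlier results of these data known. The list held the replicative helicase subunits and their loaders, the polymerases, and the clamp and clamp loader. It also held enzymes of Okazaki fragment joining and of nucleotide synthesis, chromatin assembly factors, and both E cyclins. All 37 had a row in the table of 55492 rows, and all 37 were among the 22172 rows that passed the filter on low counts. VF cells carried SclCre (a Cre recombinase driven by regulatory sequence of the blood stem cell gene Scl), the FF1 transgene for the activated human kinase JAK2-V617F, which drives myeloproliferative neoplasms, and GFP as a reporter. In VFDM cells these alleles were joined by a homozygous deletion of Dnmt3a, a DNA methyltransferase that sets new methylation marks, so every group, controls included, carried the JAK2 mutation. Marrow of either genotype was transplanted into wild-type mice with a 10-fold excess of wild-type marrow. Treatment began 4 weeks after transplantation and lasted 8 weeks. The arms were vehicle, IFN (pegylated interferon alpha, weekly at 25 µg/kg), AZA (5-azacytidine, daily at 2 mg/kg) and COMBO (both drugs). Azacytidine is a cytidine analogue that is built into nucleic acids and traps DNA methyltransferases. LT-HSCs were sorted as lineage-negative, Sca1+, Kit+, CD150+, CD48- cells. The gate as labelled does not name GFP, and ages, the induction of Cre and the number of animals behind a library are not given in the labels. There were 4 libraries in each group except VFDM COMBO, which had 3 (numbered 2, 3 and 4), and 31 in all. The labels do not say whether the libraries of a group came from separate animals, so every p-value reflects only how much these libraries varied, which may be technical.

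Before S phase, the loaders Cdc6 and Cdt1 place rings of Mcm2 to Mcm7 on replication origins. Kinases, among them Cdk2 with an E cyclin, then turn each ring into an active helicase together with Cdc45 and the GINS complex. Polymerase alpha with primase starts each strand, the Rfc clamp loader sets the Pcna ring on DNA, polymerases delta and epsilon copy the strands, and Fen1 and Lig1 finish the lagging one. Most of these genes are targets of E2F transcription factors, which are held in check by the retinoblastoma proteins, and LT-HSCs are known as a mostly quiescent population.

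Totals ran from 17782394 to 73910928 counts per library, and no member fell below 55 reads in any library (Gins1 was the lowest). Between 17087 and 28851 rows were detected, with under 20000 in 8 libraries (VF AZA 2 and 3, VF COMBO 1, 2 and 3, VFDM AZA 3 and 4, VFDM COMBO 3). Levels are given in CPM, the count scaled to a common library size (counts-per-million), and changes as log2 fold changes ± SE from edgeR's quasi-likelihood test, with p-values adjusted over 22172 rows. Some libraries stood apart. VF vehicle libraries 1 and 4 lay above libraries 2 and 3 for 12 members and below them for 5, and the share of counts in small RNA genes was 22.3, 24.9, 8.49 and 37.5% in VF vehicle 1 to 4 but at most 10.5% elsewhere. Counts of calls that rest on VF vehicle are therefore given with and without libraries 1 and 4. Dnmt3a, counted over the whole gene and so also outside the deleted part, ran from 104 to 297 CPM in VF and from 23 to 162 CPM in VFDM libraries. The overlap came from the library labelled VFDM IFN 3, at 162 CPM where the others of its group had 102 to 111, and the library labelled VF COMBO 3, at 104 CPM where the others of its group had 140 to 193. VFDM COMBO libraries 2, 3 and 4 had 51.5, 23 and 57 CPM of Dnmt3a. All other VFDM libraries had 83.4 CPM or more, and those of VFDM vehicle 109 to 120. The part of this difference in the results below was not tested.

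RefSeq promoters (GRCm38.p6, 250 bases before to 50 after the transcription start) were found for 29 of the 37 genes, in 34 promoters. They were searched on both strands for the E2F words TTTCCCGC, TTTCGCGC, TTTGGCGC and TTTGCCGC, which can overlap one another. At least 1 word was present for 11 of the 29 genes (37.9%), against 2.6% of all 27025 genes with a promoter of the same length in that table. The members' promoters were also richer in G and C (median 61.3% against 52.7%), and CCAAT was found for 58.6% of member genes against 41.1% of all. The 5 below are shown because they belong to genes whose RNA rose in VFDM COMBO and because they span the range of what was found, from 3 words in Mcm6 to none in Ccne1. E2F words are in capitals, on either strand, and each sequence is written 5′ to 3′ along the gene.

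Mcm6 (chr1:128359656-128359955, minus strand): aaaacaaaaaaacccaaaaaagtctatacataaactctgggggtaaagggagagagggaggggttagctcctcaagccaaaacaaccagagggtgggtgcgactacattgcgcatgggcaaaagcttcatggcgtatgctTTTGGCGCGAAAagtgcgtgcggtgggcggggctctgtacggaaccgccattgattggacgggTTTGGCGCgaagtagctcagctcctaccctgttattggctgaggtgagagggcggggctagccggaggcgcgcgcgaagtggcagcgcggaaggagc
Mcm5 (chr8:75109259-75109558, plus strand): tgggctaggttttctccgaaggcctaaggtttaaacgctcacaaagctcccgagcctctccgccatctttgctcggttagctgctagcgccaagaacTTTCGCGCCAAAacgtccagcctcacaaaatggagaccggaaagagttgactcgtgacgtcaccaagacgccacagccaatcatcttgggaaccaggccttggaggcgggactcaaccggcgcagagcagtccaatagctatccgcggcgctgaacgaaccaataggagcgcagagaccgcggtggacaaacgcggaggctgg
Cdc6 (chr11:98907901-98908200, plus strand): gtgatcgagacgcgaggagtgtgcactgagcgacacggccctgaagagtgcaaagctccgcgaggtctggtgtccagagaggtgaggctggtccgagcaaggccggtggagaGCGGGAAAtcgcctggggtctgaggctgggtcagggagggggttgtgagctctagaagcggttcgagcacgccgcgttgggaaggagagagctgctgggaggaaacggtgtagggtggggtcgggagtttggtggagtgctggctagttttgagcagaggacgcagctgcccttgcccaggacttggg
Cdt1 (chr8:122567765-122568064, plus strand): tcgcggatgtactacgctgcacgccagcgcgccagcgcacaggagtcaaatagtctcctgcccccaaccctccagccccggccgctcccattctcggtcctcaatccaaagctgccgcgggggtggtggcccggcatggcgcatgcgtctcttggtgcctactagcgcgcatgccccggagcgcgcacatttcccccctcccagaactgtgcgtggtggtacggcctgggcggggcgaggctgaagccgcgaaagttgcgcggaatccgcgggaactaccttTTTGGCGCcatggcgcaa
Ccne1 (chr7:38107441-38107740, minus strand): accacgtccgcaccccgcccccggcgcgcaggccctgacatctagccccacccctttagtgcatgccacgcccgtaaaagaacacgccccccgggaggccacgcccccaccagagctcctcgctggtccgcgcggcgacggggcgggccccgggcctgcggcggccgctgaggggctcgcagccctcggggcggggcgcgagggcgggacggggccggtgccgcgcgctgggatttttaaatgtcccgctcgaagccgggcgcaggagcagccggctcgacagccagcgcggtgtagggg

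In Mcm6 a pair of words on opposite strands overlapped at 110 and 106 bases before the start and a single one followed at 47. The overlapping pair in Mcm5 lay 153 and 149 bases before the start, the single word of Cdc6 138 bases before it, and that of Cdt1 at position 33 after it. These are RefSeq starts. For Cdc6 the whole promoter lies inside the gene span given below, so its word lies after the first base of that span. Of the 10 genes with a promoter that rose in VFDM COMBO (below), 5 held a word, against 6 of the 19 with a promoter that did not pass that test. These matches are descriptions of letters, not measured binding sites.

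Per kilobase of exon, the helicase subunits were the most abundant members over the 31 libraries. The length was the union of all annotated exons of a gene, whichever transcripts the cells used. Mcm6 had 85.4 CPM per kilobase, Mcm3 67.3 and Mcm7 50.1, followed by the ligase Lig1 with 44.2. Ccne1, one of the E cyclins, was the lowest with 3.65, and the GINS subunits Gins2 and Gins3 (4.61 and 4.71) and the clamp loader subunit Rfc3 (4.92) were next. Such ranks depend on the length. Gins2 had 18.9 CPM over 4097 bases, and Gins1, with 10.4 CPM per kilobase, had 15.7 CPM over 1516. Beside other rows the members were not low in these libraries. The median of their mean CPM was 54.8, against 7.9 for all 22172 tested rows. Across groups, VFDM vehicle had the lowest mean of the 8 for 27 of the 37 genes and the highest for 0. VFDM COMBO had the highest mean for 14, VF AZA for 8, VF vehicle for 7 and VF COMBO for 6.

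**Figure D1:**
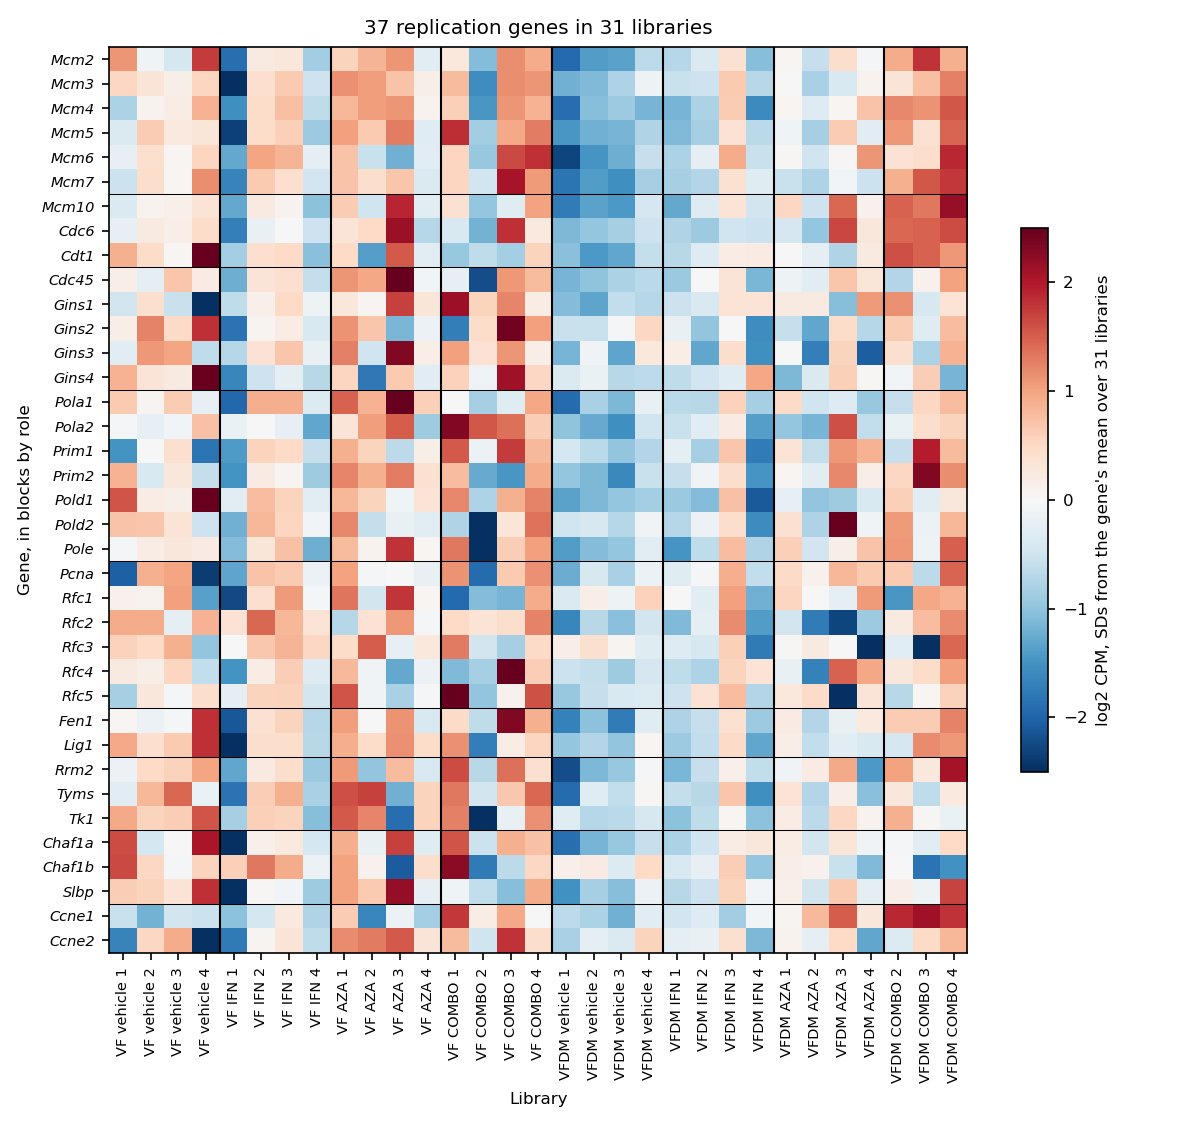
Colour shows log2 CPM of each of the 37 genes (rows, in blocks by role) in each of the 31 libraries (columns, by group), as SDs from that gene's mean over all libraries. The VFDM vehicle columns are mostly blue, with 27 genes at their lowest group mean there, and the VFDM COMBO columns mostly red, with 14 at their highest.

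Summed over the 37 genes, VFDM vehicle libraries held 2426, 2687, 2651 and 3071 CPM. VF vehicle libraries held 3594, 3557, 3563 and 4081 CPM. VFDM COMBO libraries held 3693, 3917 and 4361 CPM. The VFDM vehicle libraries lay below all libraries of those other groups, and VFDM COMBO overlapped VF vehicle. VFDM IFN (2806, 2969, 3766 and 2776) and VFDM AZA (3385, 2945, 3505 and 3363) lay between, each overlapping VFDM vehicle, and the highest VFDM IFN value was that of the library labelled VFDM IFN 3. VF IFN (2304, 3731, 3778 and 2931) and VF COMBO (4019, 2695, 4112 and 4186) had the widest spread, from library 1 of the first and library 2 of the second.

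**Figure D2:**
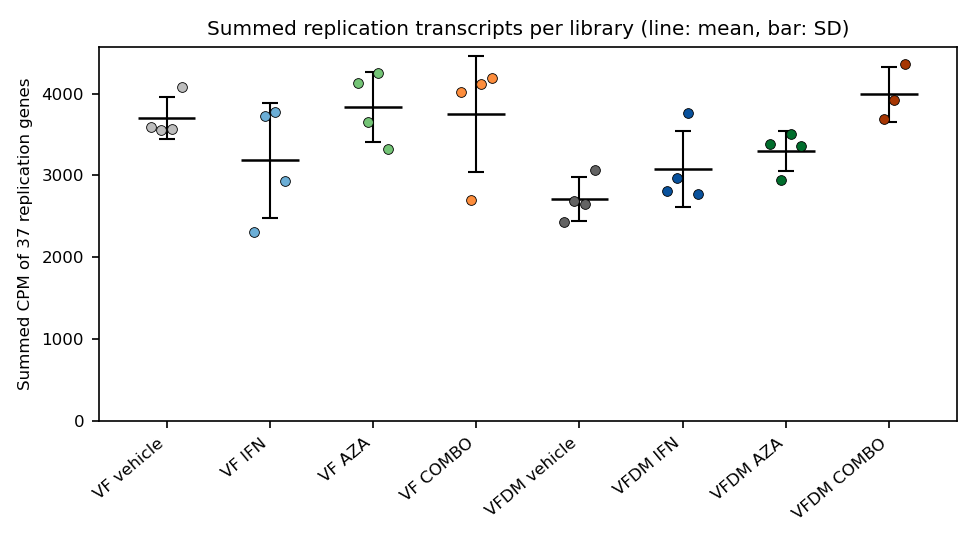
Each point is 1 library, and its height is the summed CPM of the 37 genes; the line is the group mean and the bar the SD (n = 4, and 3 in VFDM COMBO). VFDM vehicle has the lowest mean (2709) and VFDM COMBO the highest (3990).

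COMBO was compared with vehicle in VFDM cells to give the response to both drugs without Dnmt3a. Replication genes were higher: 13 of the 37 rose and 0 fell, where 5.52% of all rows rose and 10.5% fell (8.91% and 13.5% of the 10436 rows at least as abundant as the lowest member). The log2 change was positive for 35 of 37, with a median of 0.50 against -0.08 for all rows. For 22 members every COMBO library lay above every vehicle library and for 0 below, where 13.3% of all rows (21.3% at the members' abundance) lay above and 23.4% below. The 13 were 5 of 6 helicase subunits, all 3 loading and activation factors, the primase subunit Prim2, Rfc2, Fen1, Rrm2 and Ccne1.

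Cdc6 and Mcm10 moved furthest after Ccne1, and all 3 genes of the loading and activation step passed. Cdc6 (chromosome 11, 98907801 to 98923940), the ATPase that recruits the helicase to origins, had 23.2, 24.9, 26.2 and 29.9 CPM in VFDM vehicle and 66.9, 67.9 and 72.4 in VFDM COMBO. It rose 2.65-fold (log2 fold change 1.41 ± 0.34, adjusted p = 0.00331), and the groups were far apart with little spread in either. Mcm10 (chromosome 2, 4989714 to 5012791), needed to start the loaded helicase, had 29, 33.1, 32 and 45 CPM in vehicle and 84.8, 80.6 and 107 in COMBO, a rise of 1.39 ± 0.25 (adjusted p = 0.000173). Cdt1 (chromosome 8, 122568015 to 122573554), the partner of Cdc6, had 38.1, 34.6, 35.8 and 42.6 CPM in vehicle against 73.1, 70.5 and 64.2, a rise of 0.87 ± 0.21 (adjusted p = 0.00324). No COMBO library overlapped a vehicle library for any of the 3. Cdt1 overlaps the predicted gene Gm20388 on the same strand, so reads of the overlap cannot be told apart.

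Among the 6 helicase subunits 5 rose, by 0.92 or less on the log2 scale. Mcm2 (chromosome 6, 88883474 to 88898780) had 131, 150, 152 and 181 CPM in VFDM vehicle and 269, 336 and 266 in VFDM COMBO (1.89-fold, log2 fold change 0.92 ± 0.19, adjusted p = 0.000934). Mcm4 had 106, 125, 129 and 123 against 196, 193 and 210 CPM (0.72 ± 0.16, adjusted p = 0.00179). Mcm7 had 159, 171, 167 and 189 against 255, 286 and 297 CPM (0.70 ± 0.14, adjusted p = 0.000423). In these 3 the highest vehicle library stayed well under the lowest COMBO library. Mcm5 rose by 0.76 ± 0.20 (adjusted p = 0.00685), from 109, 116, 117 and 130 CPM to 204, 172 and 224. Mcm6 rose from 320 ± 34.3 (SD, n = 4) to 454 ± 61.2 CPM (n = 3). Mcm3 did not pass the test, with 211 ± 21 and 291 ± 28.2 CPM in groups that did not overlap. Mcm7 shares sequence on the opposite strand with Cops6 and Ap4m1, and the strand setting of the counting is not given in the sources used here.

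Downstream of helicase loading fewer genes passed. Of the 5 genes of Cdc45 and GINS, 0 passed (edgeR), with 5 of 5 positive and a median log2 change of 0.37. Of 7 polymerase and primase genes, Prim2 rose by 0.87 ± 0.22 (adjusted p = 0.00481), from 30.2, 29.1, 25.8 and 33.4 CPM to 43.5, 67.9 and 51, and the other 6 did not pass, all 7 being positive with a median of 0.52. Pcna, the sliding clamp, had 53.7, 66.4, 59.9 and 70.7 CPM in vehicle and 86.5, 62.3 and 106 in COMBO (0.44 ± 0.25, adjusted p = 0.261), with library 3 inside the vehicle range. Of the clamp loader, Rfc2 rose (78.8 ± 6.93 to 106 ± 8.9 CPM, n = 4 and 3), while Rfc1, its large subunit, had 149, 164, 156 and 178 CPM against 121, 192 and 188 (0.04 ± 0.20, adjusted p = 0.923). The flap nuclease Fen1 rose from 52.1 ± 9.36 to 87 ± 8.07 CPM (n = 4 and 3). These clamp and loader values therefore split between genes whose groups were separate and genes whose groups overlapped.

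Rrm2, the small subunit of ribonucleotide reductase that makes deoxynucleotides, had 18.1, 26.7, 28.4 and 39.5 CPM in VFDM vehicle and 57.1, 43.8 and 84 in VFDM COMBO. It rose by 1.13 ± 0.30 (adjusted p = 0.00863), with a wide spread in both groups that still did not overlap. Tyms (44.5 ± 9 and 52.2 ± 6.72 CPM) and Tk1 (26.5 ± 1.93 and 35.3 ± 7.32 CPM) did not pass. Slbp, which binds the stem-loop of histone mRNA, had 71.3, 82.4, 78.5 and 95.6 CPM against 102, 95.8 and 141 (0.46 ± 0.19, adjusted p = 0.0887), so the groups were just separate. Chaf1b, a subunit of the chromatin assembly factor CAF-1, was 1 of only 2 members with a negative log2 change (56.8 ± 3.33 and 46.4 ± 8.06 CPM), the other being Rfc3. Neither passed the test.

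The E cyclins differed from each other. Ccne1 (chromosome 7, 38097984 to 38107534) had 6.04, 5.62, 4.57 and 7.32 CPM in VFDM vehicle and 22.2, 25 and 21.4 in VFDM COMBO, a 3.88-fold rise and the largest of the 37 (log2 fold change 1.96 ± 0.39, adjusted p = 0.000425). Ccne2 had 12.6, 17, 16 and 25.7 CPM in vehicle and 16.1, 24.7 and 29.7 in COMBO (0.40 ± 0.46, adjusted p = 0.636). The Ccne1 groups were widely separate and the Ccne2 groups overlapped; the difference between the genes was not tested. Of the 13 calls, 9 held in all 13 alternative analyses. Without VFDM COMBO library 4, 9 of the 37 were called, Mcm6, Rfc2, Fen1 and Rrm2 being the ones lost.

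**Figure D3:**
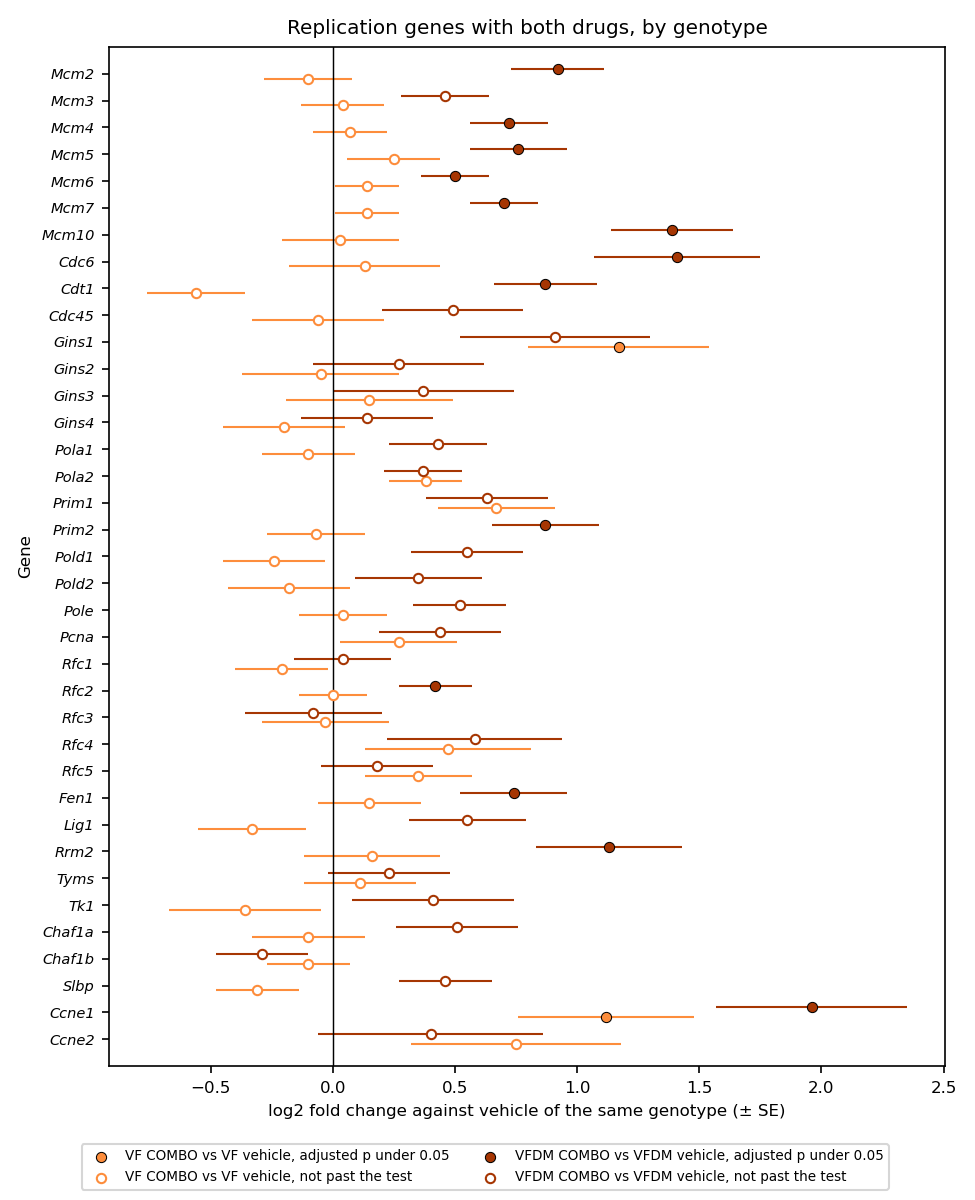
Points are log2 fold changes of COMBO against vehicle of the same genotype (bars, SE) for the 37 genes, in VF (light) and VFDM (dark); filled points passed an adjusted p of 0.05. In VFDM 13 points are filled and 35 of 37 lie right of 0, while in VF 2 are filled and 20 lie right of 0.

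Set against a single drug in VFDM cells, COMBO was higher for fewer genes. Against IFN, 5 of 37 rose (Mcm4, Mcm7, Mcm10, Cdc6 and Ccne1) and 0 fell, where 1.6% of rows rose and 6.28% fell, and 34 of 37 were positive. At the members' abundance the shares were 2.88% and 9.19%. For 11 members every COMBO library lay above every IFN library and for 0 below, where 6.98% of rows (10.5% at that abundance) lay above and 14.7% (17.5%) below. Ccne1 rose by 1.74 ± 0.38 (adjusted p = 0.00307), from 6.62, 7.16, 5.39 and 8.18 CPM in IFN. Cdc6 rose by 1.30 ± 0.34 (adjusted p = 0.0124), from 27.2, 25.4, 30.1 and 29.6 CPM. For both genes all 4 IFN libraries sat near the vehicle level. These were also the only 2 of the 5 calls that held in every alternative run, and without VFDM COMBO library 4 the count was 2. Without VFDM IFN library 1 the count was 3, and without the library labelled VFDM IFN 3 it was 6. Against AZA, Mcm7 (0.48 ± 0.14, adjusted p = 0.0285) and Rfc2 (0.51 ± 0.15, adjusted p = 0.0251) rose and 0 fell, where 1.94% of rows rose and 5.87% fell (2.37% and 8.3% at the members' abundance). For 8 members the groups were separate with COMBO above and for 0 below, where 5.77% of rows (8.18%) lay above and 9.13% (13%) below. Neither held without VFDM COMBO library 4 or without VFDM AZA library 2, where 0 were called, and the count was 1 without VFDM AZA library 1 or VFDM COMBO library 3.

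With 1 drug, no member passed edgeR's test against VFDM vehicle. For AZA this was 0 of 37, where 0.852% of rows rose and 0.0722% fell, with 9 members at an unadjusted p under 0.05 (9.53% of all rows). DESeq2 called 1, higher. Still, 32 of 37 were positive with a median log2 change of 0.32 (all rows -0.04), and for 9 every AZA library lay above every vehicle library (5.11% of rows, 8.96% at the members' abundance) and for 0 below (7.94% and 8.63%). Ccne1 had 8.74, 12.8, 18.4 and 9.76 CPM with AZA (1.08 ± 0.36, adjusted p = 0.199), all above the 4 vehicle libraries. Cdc6 had 31, 24.8, 73.7 and 41.5 CPM (0.72 ± 0.32, adjusted p = 0.436), with library 3 at the level of COMBO and library 2 at that of vehicle. Mcm2 had 216, 184, 238 and 212 CPM (0.47 ± 0.18, adjusted p = 0.324), also with no overlap. For IFN the count was 0 of 37 by edgeR and by DESeq2, where 0.916% of rows rose and 0.0496% fell, with 1 at an unadjusted p under 0.05 (6.13% of all rows), 30 positive and a median of 0.17. Gins1 alone lay wholly above vehicle and 0 below, where 5.87% of rows lay above and 6.97% below. Rrm2 had 26.6, 32.6, 41.9 and 32.1 CPM with IFN, its highest value in the library labelled VFDM IFN 3, and without that library the count was again 0. The 3 VFDM treatment comparisons share the vehicle libraries and are not independent.

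**Figure D4:**
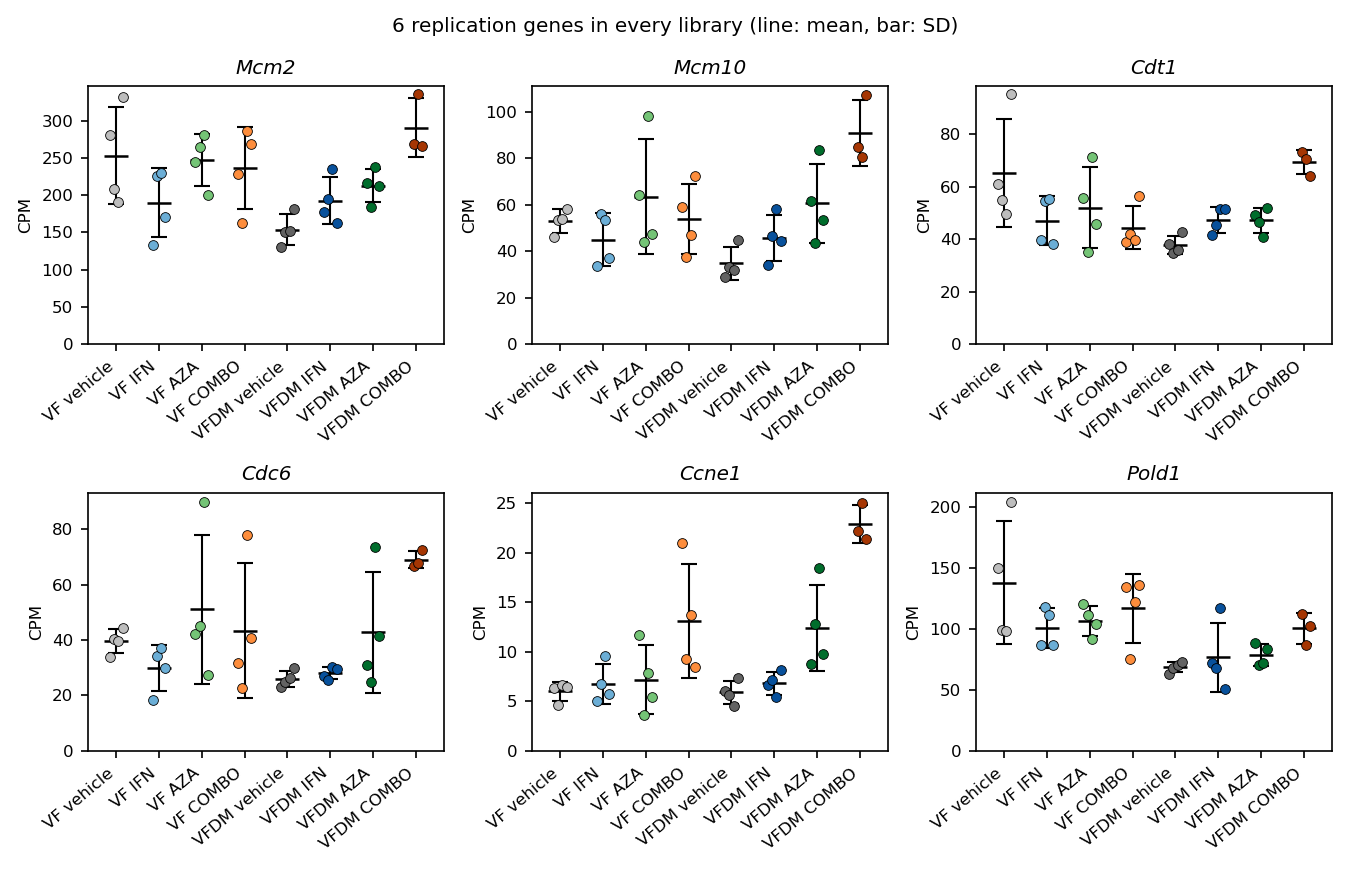
CPM of 6 genes in each library (points), with group means (lines) and SD (bars); n = 4, and 3 in VFDM COMBO. The group means of Cdc6, Mcm10 and Ccne1 are highest in VFDM COMBO (Ccne1 21.4 to 25 CPM) and that of Pold1 is lowest in VFDM vehicle (63.1 to 73.1 CPM), though single libraries lie beyond (Cdc6 89.7 CPM in VF AZA 3, Pold1 50.6 CPM in VFDM IFN 4).

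In VF cells the same treatments moved few replication genes. IFN against vehicle gave 0 calls of 37 by edgeR, where 1.27% of rows rose and 1.16% fell, with 8 at an unadjusted p under 0.05 (12.4% of all rows). DESeq2 called 1, lower. Without VF vehicle library 2 or 3, 1 was called lower, and without libraries 1 and 4 together 0 were called, with a median of -0.15. Only 7 of 37 were positive and the median was -0.15 (all rows -0.02). Slbp had 54.5, 99.2, 97.2 and 81.6 CPM with IFN and 112, 111, 106 and 145 with vehicle (-0.51 ± 0.17, adjusted p = 0.135). Cdt1 had 39.9, 54.6, 55.5 and 38.1 CPM against 61.2, 55, 49.8 and 95.3 (-0.47 ± 0.20, adjusted p = 0.259). Slbp did not overlap between the groups and Cdt1 did. Only Slbp and Gins4 lay wholly below vehicle and 0 above, where 6.02% of rows lay below and 7.28% above. VF IFN libraries 1 and 4 were the low ones for both Slbp and Cdt1. AZA against vehicle gave 0 calls by edgeR and by DESeq2 (0.293% of rows rose and 0.902% fell), with 5 at an unadjusted p under 0.05 (14.1% of all rows), 22 positive and a median of 0.08. Without VF vehicle libraries 1 and 4, 0 were called and the median was 0.10. No member separated the groups in either direction, where 2.27% of rows lay above and 4.38% below.

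COMBO in VF cells raised 2 of 37 and lowered 0, where 4.16% of rows rose and 4.13% fell, with 20 positive and a median of 0.04 (all rows -0.11). That share is close to the background. Ccne1 had 21, 9.28, 13.7 and 8.43 CPM with COMBO and 6.37, 4.59, 6.65 and 6.42 with vehicle, and rose by 1.12 ± 0.36 (adjusted p = 0.0479). Gins1, a GINS subunit, had 38.2, 18.4, 25.1 and 15.6 CPM against 11.6, 17.2, 11.1 and 3.18, and rose by 1.17 ± 0.37 (adjusted p = 0.0451). The Ccne1 groups did not overlap, the Gins1 groups did, and COMBO library 1 was the highest for both genes. Ccne1 was the only member of 37 whose COMBO libraries all lay above vehicle and 0 lay below, where 3.54% of rows lay above and 8.79% below. Neither call held without VF vehicle libraries 1 and 4 (Ccne1 1.24, adjusted p = 0.199; Gins1 0.81, adjusted p = 0.353). The count ran from 0 to 5 when 1 library was left out, being 0 without VF vehicle library 1 or 4 or VF COMBO library 1 or 3, 1 without VF vehicle library 2 and 5 without VF COMBO library 4. COMBO against IFN alone called 0 (edgeR; 10 at an unadjusted p under 0.05, against 11.2% of all rows; DESeq2 1; 0.00451% of rows rose and 0.00451% fell; 1 without VF COMBO library 4), and COMBO against AZA alone 0 (4 at an unadjusted p under 0.05, against 16.8% of all rows; DESeq2 0; 1.06% rose and 0.794% fell). Against IFN, Gins4 and Pola2 lay wholly above and 0 below (1.97% of rows above, 8.31% below), and against AZA 0 lay above or below (1.76% and 2.55%).

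The genotypes were compared under vehicle to give the difference that goes with Dnmt3a deletion after 8 weeks without either drug. Replication genes were lower in VFDM: 35 of 37 log2 differences were negative, with a median of -0.43 (all rows -0.01), 3 fell and 0 rose, where 0.785% of rows fell and 0.171% rose (1.44% and 0.335% at the members' abundance). For 20 members every VFDM vehicle library lay below every VF vehicle library, where 6.87% of rows (7.62% at the members' abundance) did, and for 0 above (6.34% and 8.46%). Pold1 (chromosome 7, 44532746 to 44548849), the catalytic subunit of polymerase delta, had 150, 99.1, 98.2 and 204 CPM in VF vehicle and 63.1, 67.5, 70.7 and 73.1 in VFDM vehicle. Its level in VFDM was 0.499 of that in VF (SE 0.21 on the log2 scale, adjusted p = 0.0126). Mcm2 had 281, 208, 191 and 331 CPM in VF vehicle against 131, 150, 152 and 181 (-0.72 ± 0.18, adjusted p = 0.0454). Cdt1 fell by 0.79 (SE 0.20, adjusted p = 0.0395). All 3 had VF vehicle libraries 1 and 4 above libraries 2 and 3, which were themselves above every VFDM vehicle library.

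These calls rest on few libraries. Without VF vehicle libraries 1 and 4 the differences were -0.49 for Pold1, -0.34 for Mcm2 and -0.44 for Cdt1, 0 were called, and the median over the members was -0.37. The count was also 0 without VF vehicle library 4 or VFDM vehicle library 1, 2 or 3 and 1 without VF vehicle library 1 or VFDM vehicle library 4. Rrm2 (37.9, 47.8, 49 and 56.7 CPM in VF vehicle; -0.76 ± 0.28, adjusted p = 0.227) and Slbp (-0.53 ± 0.17, adjusted p = 0.151) did not pass. Pcna had 43.8, 92.2, 94.3 and 40.3 CPM and Ccne2 8.09, 25.3, 31.1 and 4.86 CPM in VF vehicle. Both were low in VF vehicle libraries 1 and 4, the opposite order to Pold1, Mcm2 and Cdt1. Stem cell markers moved with this difference. The summed 12 LT-HSC markers held 2736 to 3025 CPM in VFDM vehicle and 2062 to 2276 in VF vehicle, and 1 of the 12, Slamf1, rose (1.11 ± 0.21, adjusted p = 0.0046) while 0 fell. Hlf, Kit, Meis1 and Gata2 also lay wholly above VF vehicle without passing the test. The part of these markers in the result was not tested. The small RNA share, high in libraries 1, 2 and 4, differs between these groups, and its part in the result was not tested. Averaged over the 4 treatments, Pold1 (-0.51 ± 0.11, adjusted p = 0.00582) and Rfc2 (-0.25 ± 0.07, adjusted p = 0.0449) fell and 0 rose, where 1.57% of rows fell and 0.794% rose. The Pold1 difference passed in all 38 alternatives, and that of Rfc2 in 5.

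The response to COMBO differed between genotypes for 3 members by the interaction term, all more positive in VFDM, where 1.25% of rows were more positive and 2.49% more negative. Cdt1 changed by -0.56 ± 0.20 in VF (adjusted p = 0.0714), with 39, 42.1, 39.9 and 56.4 CPM in VF COMBO, and rose in VFDM, a difference of 1.43 ± 0.29 (adjusted p = 0.00285). Mcm10 differed by 1.36 ± 0.35 (adjusted p = 0.0206) and Mcm2 by 1.01 ± 0.27 (adjusted p = 0.0249). VF COMBO libraries held 59, 37.5, 46.9 and 72.3 CPM of Mcm10 and 228, 162, 286 and 269 CPM of Mcm2, both overlapping VF vehicle. Over all members 30 of 37 differences were positive, with a median of 0.51 (all rows -0.06). The interaction term includes the gap between genotypes under vehicle, with its sign reversed, and Mcm2 and Cdt1 were called lower in VFDM there. It is therefore not independent of that comparison. Under COMBO itself, Mcm2 had 266 to 336 CPM in VFDM and 162 to 286 in VF, which overlapped. Mcm10 (80.6 to 107 and 37.5 to 72.3 CPM) and Cdt1 (64.2 to 73.1 and 39 to 56.4 CPM) did not overlap. Without VF vehicle libraries 1 and 4, 1 passed: Cdt1 kept its call (1.13, adjusted p = 0.0287), while Mcm10 (1.40, adjusted p = 0.0562) and Mcm2 (0.69, adjusted p = 0.208) did not. Without the 8 libraries under 20000 detected rows Cdt1 had 1.08 (adjusted p = 0.0783). Left out alone, VFDM vehicle library 1 reduced the count to 1, and VF COMBO library 3 or 4 raised it to 5. Over 22 alternatives Cdt1 kept its call in 21, Mcm10 in 18 and Mcm2 in 13. Mcm2 also lost its call with VF vehicle library 1 or 4 or VF COMBO library 2 left out alone. The same held for VFDM vehicle library 1, 2 or 3 and VFDM COMBO library 3. Mcm10 also lost its call without VFDM vehicle library 1 or VFDM COMBO library 4. The IFN and AZA responses gave 0 members by edgeR and by DESeq2 (8 and 2 at an unadjusted p under 0.05, against 5.18% and 10.4% of all rows), where 0% of rows differed in either direction for IFN, and 0.564% were more positive and 0.018% more negative for AZA.

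Other genes of the pathway, from lists chosen by function, were set beside the members in VFDM COMBO, where 5.52% of all rows and 8.91% of rows at the members' abundance rose. Of 22 other origin and checkpoint genes 10 rose and 0 fell. Among them were Orc2 (1.09 ± 0.20, adjusted p = 0.000179) and Orc1 (1.28 ± 0.32, adjusted p = 0.00475), subunits of the origin recognition complex, and Wdhd1 (0.90 ± 0.17, adjusted p = 0.000234), which ties the helicase to polymerase alpha. Orc1 had 6.6, 6.62, 5.75 and 7.09 CPM in VFDM vehicle and 12.5, 15.5 and 19.5 in COMBO, with no overlap. Of 25 other fork and nucleotide genes 3 rose (Asf1a, Asf1b and Nasp, all histone chaperones) and 0 fell, a share near that background. Of 20 G2 and mitosis genes 5 rose and 0 fell, with 20 of 20 positive and a median of 0.61, Mki67 among them (0.95 ± 0.23, adjusted p = 0.00378).

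Regulators of entry into S phase moved both ways there, 7 of 23 rising and 5 falling. E2f8, an E2F family repressor, rose by 2.23 ± 0.27 (adjusted p = 4.36e-07), from 48.1, 43.1, 41.7 and 61.8 CPM to 222, 188 and 273. Cdk6, a G1 kinase, rose by 1.96 ± 0.24 (adjusted p = 6.43e-07), from 455, 384, 377 and 381 CPM to 1606, 1518 and 1541, and E2f2 by 2.45 ± 0.43 (adjusted p = 9.05e-05). For E2f8 and Cdk6 every COMBO library was far above every vehicle library. E2f2 had 6.98 to 10 CPM in vehicle and 17.9 to 80.3 in COMBO, separate but widely spread. Mycn fell by 2.03 (SE 0.31, adjusted p = 2.42e-05). Of 6 tested inhibitors of cyclin-dependent kinases only Cdkn1c passed, and it fell by 3.34 (SE 0.78, adjusted p = 0.00254). Cdk6 and E2f8 also had higher means in other treated groups, where few or no members were called. Mean Cdk6 was 399, 1017 and 889 CPM in VFDM vehicle, IFN and AZA. In VF vehicle, IFN, AZA and COMBO it was 612, 1337, 776 and 1398 CPM. Mean E2f8 was 48.7, 102 and 135 CPM in the same VFDM groups and 65.7, 116, 81.6 and 179 CPM in the VF groups. Under vehicle, VFDM against VF, all 20 G2 and mitosis genes were lower with a median of -0.48 but 0 passed, Chtf18, an alternative clamp loader subunit, fell by 1.10 (SE 0.26, adjusted p = 0.0316), and the inhibitor Cdkn2c by 1.78 (SE 0.40, adjusted p = 0.0176).

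Markers of cell identity moved with the replication genes in VFDM COMBO. Of 12 LT-HSC markers 7 fell and 0 rose, and the summed level was 1412 to 1825 CPM against 2736 to 3025 in VFDM vehicle. Hlf had 33, 40.2 and 32.8 CPM in COMBO against 415 to 505 in vehicle, and Procr 0.0315, 0.0575 and 0.439 CPM against 33.9 to 40.4. Fgd5 had 0.815 to 6.73 CPM in COMBO against 66.1 to 94.2. Of the genes behind the sort, Kit had 514 to 677 CPM in COMBO and 683 to 804 in vehicle. These groups did not overlap, though Kit did not pass edgeR's test (-0.37 ± 0.17, adjusted p = 0.138). Slamf1, which encodes CD150, had 87.5 to 95.4 CPM in COMBO and 59.3 to 93.3 in vehicle. Ly6a, which encodes Sca1, had 11.6 to 18 CPM in COMBO and 12.1 to 15.3 in vehicle. Cd48, whose protein the gate excludes, had 7.43, 7.6, 5.14 and 4.52 CPM in vehicle and 16.8, 14.1 and 22.8 in COMBO, and rose by 1.54 ± 0.51 (edgeR, adjusted p = 0.0358). The other 2 of the 3 progenitor markers fell, Flt3 by 3.48 (SE 0.62, adjusted p = 0.000166) and Cd34 by 2.94 (SE 0.45, adjusted p = 3.45e-05). COMBO and vehicle did not overlap for any of the 3. In VF cells too, COMBO against vehicle raised Cd48 (1.80 ± 0.49, edgeR, adjusted p = 0.0192) and lowered Flt3 (-1.81 ± 0.51, adjusted p = 0.025). There Cd34 did not pass (-1.13 ± 0.37, adjusted p = 0.0582). Of 12 erythroid markers 11 rose and 0 fell in VFDM COMBO. Their sum was 488 to 507 CPM in VFDM vehicle and 2251, 19143 and 4110 CPM in VFDM COMBO libraries 2, 3 and 4. Of 9 neutrophil markers 5 rose, with sums of 34.1 to 98.3 CPM and 644 to 1609 CPM. None of these markers was at 0 in every library of VFDM COMBO. Without COMBO library 3, the one with the most erythroid RNA, 13 members were called, Rfc2 no longer among them. In bulk RNA, a larger share of cells of one type and more RNA per cell cannot be told apart. The part of these markers in the replication result was not tested.

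Across the 31 libraries the members rose and fell together only in part. Over 666 pairs the median Pearson r of log2 CPM was 0.44, from -0.39 to 0.91 (Mcm7 with Fen1), and 265 pairs were over 0.5. Mcm5 was the most typical (mean r of 0.62 with the others) and Chaf1b (0.05) and Rfc3 (0.12) the least. The mean log2 CPM of the 37 had an r of 0.93 with that of the other origin genes, 0.92 with the other fork genes and 0.90 with the G2 and mitosis genes (0.87 after removing group means). It had an r of 0.67 with the E2F and G1 regulators, 0.08 with the inhibitors, -0.42 with the LT-HSC markers (-0.06 after removing group means) and 0.25 with the erythroid markers (-0.12). All these share libraries and scaling, so they are descriptions. Of 12182 other rows, the 10 most like the members' mean were Tpx2 (r of 0.934), Top2a (0.921), Rrm1 (0.908), Cdca2 (0.902), Uhrf1 (0.900), Atp5a1 (0.887), Pclaf and Dnmt1 (0.883 each), Kif22 (0.880) and Lmnb1 (0.873). Dnmt1, the maintenance methyltransferase, had group means from 513 CPM in VFDM vehicle to 733 in VF vehicle.

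**Figure D5:**
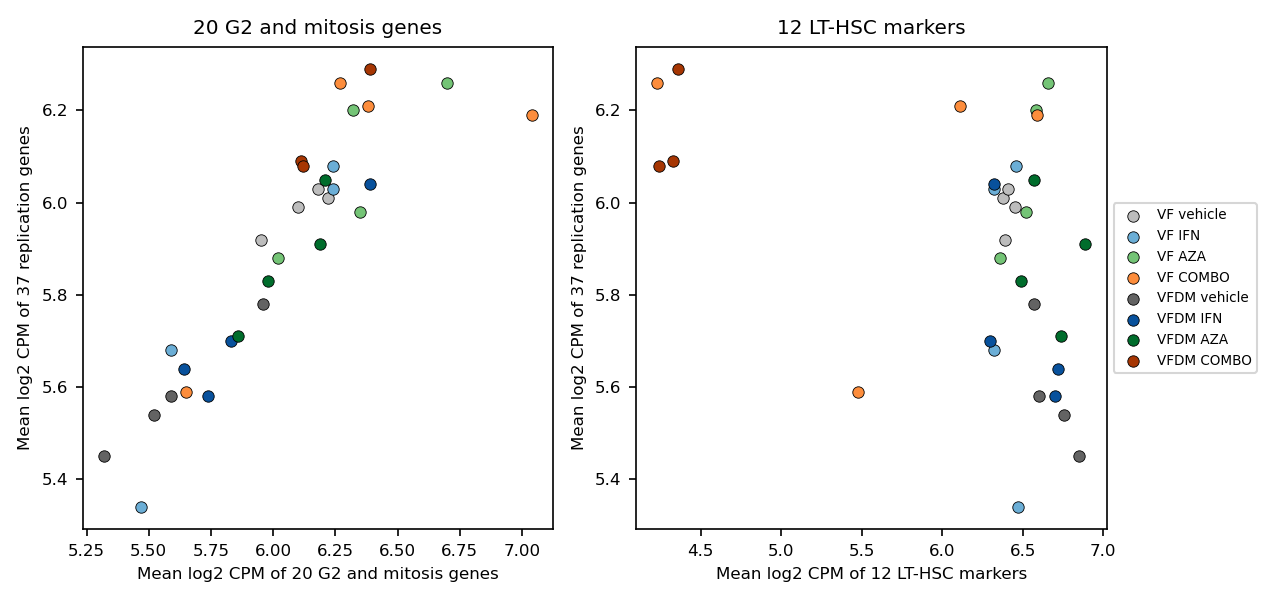
Each point is 1 of 31 libraries, coloured by group, with the mean log2 CPM of the 37 replication genes on the y axis and that of 20 G2 and mitosis genes (left) or 12 LT-HSC markers (right) on the x axis. The left points follow a line (r of 0.90), while on the right the 3 VFDM COMBO libraries and VF COMBO library 3 have low LT-HSC markers (r of -0.42).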

How the data were processed

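RNA from sorted cells was made into libraries with the Takara SMART-Seq Stranded kit, per the labels' protocols. The deposited table holds raw read counts per gene made by the authors; FastQC 0.11.5, STAR 2.7.10a, featureCounts, R 4.3.0 and the mm10 build are named in the submitters' processing notes. No source used here gives the annotation, the strand setting or the handling of multimapping reads of the counting, and overlapping genes and copies (Pcna, Tyms) may share reads. Names were matched to GENCODE vM21 for 55227 of 55492 rows.

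The counts were filtered with edgeR 4.0.16 (filterByExpr, minimum count 10, minimum total 15), scaled by TMM and fitted with the robust quasi-likelihood test (R 4.3.3) on all 31 libraries in 8 groups, for 15 two-sided comparisons that share controls. P-values were adjusted by Benjamini-Hochberg over 22172 rows with a threshold of 0.05. The SE is the log2 fold change divided by the square root of F. Log2 CPM used a prior count of 2. Genes whose levels were like the members' were sought among rows averaging 2 or more in log2 CPM. No replicate pair differed by as little as sampling noise. The alternatives were RLE scaling, no filter, a replicate block, protein-coding rows, DESeq2 1.42.0, libraries left out singly or for under 20000 detected rows and, chosen after seeing the data, VF vehicle 1 and 4 left out. The fit was also run on simulated counts with known changes planted in VFDM COMBO and the same means in all other groups. Differences between libraries in small RNA share or cell types were not built in, so that run cannot judge their effect on the calls. Values in every library are given for members past the threshold, at most the 8 with the smallest p per comparison and direction, and always for Mcm2, Mcm5, Pcna, Cdc6, Cdt1, Rrm2, Ccne1, Ccne2, Rfc1 and Slbp where their comparison is described. From each other list at most 4 genes with the smallest p are named, besides genes of the sort gate and markers whose groups were separate. The members and lists were chosen with earlier results of these data known.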

Additional observations from a re-analysis of the deposited data

Results flagged for a closer look

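In groups of 4, a library was singled out where its gap to the nearest other library exceeded Dixon's 95% critical value. This was met in 9 of 140 groups, where about 7 would be met by chance (1 in 20). Gins1 had 31.4 CPM in VF AZA 3 (others 14.8 to 16.4) and Pcna 94.8 CPM in VF AZA 1 (others 70 to 73.6). Rfc2 had 89.3 CPM in VF vehicle 3 (others 108 to 109) and 115 CPM in VF COMBO 4 (others 98.3 to 101). In VF vehicle 4, Fen1 had 112 CPM (others 67.4 to 71), Slbp 145 CPM (others 106 to 112) and the summed members 4081 CPM (others 3557 to 3594). Ccne1 had 4.59 CPM in VF vehicle 2 (others 6.37 to 6.65), and the summed members 2695 CPM in VF COMBO 2 (others 4019 to 4186). The COMBO response differed between genotypes by edgeR's interaction term for Mcm2 (1.01, adjusted p = 0.0249), Mcm10 (1.36, adjusted p = 0.0206) and Cdt1 (1.43, adjusted p = 0.00285), all more positive in VFDM. Of 22 alternative analyses, the call held in 13 for Mcm2, 18 for Mcm10 and 21 for Cdt1. The interaction term shares its vehicle libraries with the comparison of genotypes under vehicle and is not independent of it.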

How the results depend on the processing

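No named change reversed direction in any alternative run; the values below are counts of members called, and the causes of changed counts were not tested. Scaling by RLE gave 8 for VFDM COMBO against IFN and 1 for the genotypes over 4 treatments. With no filter the counts were 1 for VF COMBO against vehicle, 1 for VFDM against VF vehicle and 1 over 4 treatments. Replicate numbers did not pair the libraries (same-numbered pairs had a median correlation near 0, from -0.12 to 0.17, with 6 of 105 over 0.1); with the replicate block the counts were 12 for VFDM COMBO against vehicle, 0 for VF COMBO against vehicle, 1 for VFDM COMBO against AZA and 1 over 4 treatments. With protein-coding rows only they were 10 for VFDM COMBO against IFN, 19 for VFDM COMBO against vehicle, 3 for VFDM COMBO against AZA, 1 over 4 treatments and 5 for the genotype difference in the COMBO response. Without libraries under 20000 detected rows they were 1 (lower) for VF IFN, 0 for VF COMBO against vehicle, 8 for VFDM COMBO against IFN, 3 for VFDM COMBO against AZA and 1 for the difference in the COMBO response. Without VF vehicle 1 and 4 they were 0 for VF COMBO against vehicle, 0 for VFDM against VF vehicle, 1 over 4 treatments and 1 for the difference in the COMBO response. DESeq2 gave 1 (lower) for VF IFN, 4 for VF COMBO against vehicle, 1 for VFDM AZA, 1 for VF COMBO against IFN, 10 for VFDM COMBO against IFN and 6 for the difference in the COMBO response. Leaving out 1 library at a time gave 0 to 1 for VF IFN, 0 to 5 for VF COMBO and 9 to 16 for VFDM COMBO against vehicle, 0 to 1 for VF COMBO against IFN, 2 to 6 for VFDM COMBO against IFN, 0 to 2 for VFDM COMBO against AZA, 0 to 4 for VFDM against VF vehicle, 1 to 2 over 4 treatments and 1 to 5 for the difference in the COMBO response. The smallest change these groups of 3 or 4 libraries can detect was not determined.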
